A study of Trachinotus blochii with 22 samples.

Results

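The microRNAs miR-192, miR-194 and miR-215 were followed in livers of the golden pompano, Trachinotus blochii, a farmed sea fish, through hypoxia and 2 ways of giving the oxygen back. Rows of the deposited table were taken by name, whatever the letter, copy number or arm in the name, which gave 35 of 2108 rows. Of these, 12 rows were named miR-192, 17 miR-194 and 6 miR-215. Rows with identical values in all 22 libraries counted once, which left 30 distinct rows of the 1400 distinct rows in the table. Of the 30, 18 had at least 1 CPM in at least 2 libraries and were tested, among 602 tested rows in all. CPM is the number of reads of an entry per 1000000 reads assigned to all entries of a library. The other 12 distinct rows reached 6.06 CPM at most in any library and were not tested.

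Each of the 22 libraries was made from liver total RNA, and the labels give no strain, age or number of fish per library. The 8 groups were gradual reoxygen 3 h, rapid reoxygen 3 h, gradual reoxygen 12 h, rapid reoxygen 12 h, hypoxia 12 h, hypoxia 0 h, normoxia 12 h and normoxia 0 h. Rapid reoxygen 12 h and normoxia 0 h had 2 libraries each and the other 6 groups had 3 each. The starting point of the hours is not given in the labels, nor is it stated that the libraries of a group came from separate fish, so a p-value reflects the spread among these libraries alone, which may be technical. The columns read as normoxia 0 h carry no time in their names and were placed by their number alone, a limit on every comparison with that group. Likewise, the letters that mark the treatments in the column names are not explained in the labels. Normoxia, hypoxia, rapid and gradual reoxygenation were all matched to them by numbers of columns and samples, a limit on every comparison. Library numbers are those of the table, where normoxia 0 h has numbers 2 and 3.

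A microRNA is cut from a hairpin precursor into a 5p and a 3p arm, and usually a single arm is kept in the silencing complex, where the first bases of the RNA, its seed, choose the messages to be repressed. miR-192 and miR-215 share their seed, whereas miR-194 has another. In the human genome the genes of miR-192 and miR-215 each lie next to a copy of miR-194, and each pair is transcribed as a unit. In mammals the 3 miRNAs are known for their high levels in liver, kidney and the lining of the gut, and in human cells p53 raises them. The species prefix of an entry, such as ola for medaka, dre for zebrafish, hsa for human or xtr for the frog Xenopus tropicalis, names the animal in which the sequence was listed, while the reads are those of the pompano.

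miR-192 was by far the most abundant of the 3. Its lead entry, the one with the highest mean, was ola-miR-192-5p, and the leads of the other two names were ola-miR-194-5p and hsa-miR-215-5p. Mature miRNAs are of nearly equal length, and CPM has no length term. The ratio of the ola-miR-192-5p level to that of ola-miR-194-5p had a median of 16.2 over the 22 libraries, between 12.6 and 26.7. The ratio of the ola-miR-192-5p level to that of hsa-miR-215-5p had a median of 17.8, between 11.5 and 34.9. In all 22 libraries, therefore, the order by level put miR-192 first, while the order of miR-194 and miR-215 differed between libraries. In gradual reoxygen 12 h library 1 the 2 ratios were 16.2 and 34.9, so that miR-194 was above miR-215. In normoxia 12 h library 2 they were 21.1 and 11.5, so that miR-215 was above miR-194.

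Between the ola entries of miR-192 and of miR-194, the 5p arm exceeded the 3p arm in every library. The level of ola-miR-192-5p was 83.7 to 225 times that of ola-miR-192-3p, with a median of 147, and the level of ola-miR-194-5p was 34.3 to 88.1 times that of ola-miR-194-3p, with a median of 48.6. The entry bta-miR-194b-3p carries a 3p name, but its log2 values followed those of ola-miR-194-5p with a Pearson r of 0.991 over 22 libraries. It held 287.9 to 741 CPM in 21 libraries, far above the 10.04 to 25.6 CPM of ola-miR-194-3p in the same libraries. In those libraries ola-miR-194-5p held 595 to 1437 CPM. The arm of bta-miR-194b-3p cannot be settled without sequences, and the entry was left out when the arms were compared. If its reads are of the 3p arm, the excess of the 5p arm of miR-194 is far smaller than given.

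Several entries were near copies of each other and are not separate measurements. dre-miR-192 differed from ola-miR-192-5p by at most 2.34 CPM in any library. mmu-miR-194-5p and dre-miR-194a differed from ola-miR-194-5p by at most 0.572 and 1.86 CPM, and bta-miR-194b lay within 0.16 of it on the log2 scale. efu-miR-192 and hsa-miR-192-5p held identical values. The log2 values of ola-miR-192-3p and the salmon-named ssa-miR-192a-2-3p had a Pearson r of 0.994. The 18 tested entries thus hold fewer than 18 independent signals, and counts of entries below have to be read with that in mind.

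ola-miR-192-5p had 20162, 19214 and 16637 CPM in gradual reoxygen 3 h livers and 18053, 13041 and 13646 CPM in rapid reoxygen 3 h livers. It had 12311, 15918 and 14049 CPM in gradual reoxygen 12 h livers and 16430 and 12701 CPM in rapid reoxygen 12 h livers. Hypoxia 12 h livers held 15139, 15175 and 11849 CPM and hypoxia 0 h livers 24303, 13603 and 16838 CPM, against 14340, 16456 and 17887 CPM in normoxia 12 h livers and 98914 and 22302 CPM in normoxia 0 h livers. Apart from normoxia 0 h library 2, whose level was 6.21 times the median of the other 21, all libraries lay between 11849 and 24303 CPM. These are large counts, with at least 215246 reads of this entry in each library, so that counting error is small beside the spread between libraries.

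By group mean the order of ola-miR-192-5p was normoxia 0 h (60608 ± 54173 CPM, SD, n = 2), gradual reoxygen 3 h (18671 ± 1824, n = 3), hypoxia 0 h (18248 ± 5488, n = 3), normoxia 12 h (16228 ± 1784, n = 3), rapid reoxygen 3 h (14913 ± 2736, n = 3), rapid reoxygen 12 h (14566 ± 2637, n = 2), gradual reoxygen 12 h (14093 ± 1804, n = 3) and hypoxia 12 h (14054 ± 1910, n = 3). Normoxia 0 h and gradual reoxygen 3 h had ranges that did not overlap, and every other neighbour pair in this order overlapped. In the authors' deposited table the mean of normoxia 0 h is 47699 CPM, over a further library that was not analysed here. This is below the 60608 CPM of the 2 libraries, so the further library lay under 47699 CPM, as library 3 did and library 2 did not. The deposited means of ola-miR-194-5p and hsa-miR-215-5p, 2986 and 2048 CPM, likewise lay below the 3967 and 2470 CPM of the 2 libraries.

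ola-miR-194-5p had 1437, 805 and 709 CPM in gradual reoxygen 3 h livers and 1047, 899.8 and 885 CPM in rapid reoxygen 3 h livers. It had 758, 595 and 808 CPM in gradual reoxygen 12 h livers and 1138 and 746 CPM in rapid reoxygen 12 h livers. Hypoxia 12 h livers held 1119, 1080.1 and 877 CPM and hypoxia 0 h livers 1354, 840.3 and 837 CPM, against 1138, 781 and 1138 CPM in normoxia 12 h livers and 6756 and 1179 CPM in normoxia 0 h livers. Library 2 of normoxia 0 h again stood above all others, and gradual reoxygen 12 h had the lowest mean, 721 ± 111 CPM (SD, n = 3). The means of the 6 groups between these ends ran from 942 ± 277 CPM in rapid reoxygen 12 h livers (SD, n = 2) to 1026 ± 130 CPM in hypoxia 12 h livers (SD, n = 3), and neighbours in that order overlapped.

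hsa-miR-215-5p had 1219.8, 1218 and 1137 CPM in gradual reoxygen 3 h livers and 1044, 640.2 and 809.8 CPM in rapid reoxygen 3 h livers. It had 353, 763 and 476 CPM in gradual reoxygen 12 h livers and 1334 and 521 CPM in rapid reoxygen 12 h livers. Hypoxia 12 h livers held 753, 884 and 418 CPM and hypoxia 0 h livers 1326, 752 and 883 CPM, against 814, 1431 and 1118 CPM in normoxia 12 h livers and 3627 and 1313 CPM in normoxia 0 h livers. The 3 gradual reoxygen 3 h libraries lay within a narrow band, with a mean of 1192 ± 47.5 CPM, whereas the gradual reoxygen 12 h libraries averaged 530.5 ± 211 CPM, the lowest group mean (SD, n = 3 each).

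**Figure D1:**
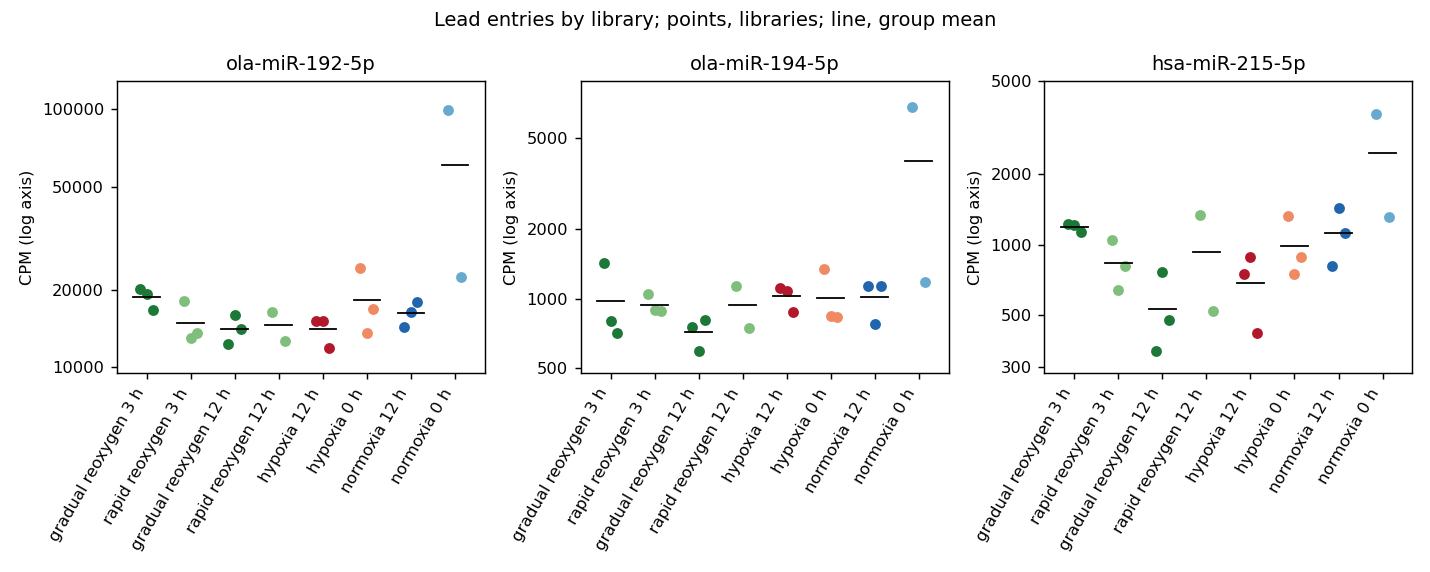
CPM on a log axis of the lead entries ola-miR-192-5p, ola-miR-194-5p and hsa-miR-215-5p by group, with one point per library and a line at the group mean. Normoxia 0 h library 2, at 98914, 6756 and 3627 CPM, stands above every other library in each panel.

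The lower-level entries gave the same first library but differed in the rest. xtr-miR-215 held 306 CPM in normoxia 0 h library 2 and 12.4 to 42.3 CPM in the other 21. Over those 21 libraries, the Pearson r between log2 values of xtr-miR-215 and hsa-miR-215-5p was 0.300, whereas that of xtr-miR-215 with dno-miR-192-5p, named after the armadillo, was 0.755. The r of hsa-miR-215-5p with ola-miR-192-5p over the same libraries was 0.830 and that of ola-miR-194-5p with ola-miR-192-5p 0.529. These values describe libraries that share their scaling to a fixed sum, and no test was made of them.

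All 18 tested entries had their highest level in normoxia 0 h library 2, compared with 106 of all 602 tested rows (17.6%). The level there was between 3.80 times (dno-miR-192-5p) and 10.5 times (aca-miR-194-1-3p, named after the anole lizard) the median of the other 21 libraries for 17 of the entries. The other entry, ssa-miR-194b-5p, is treated separately below. ola-miR-192-3p had 4.92 times and ola-miR-194-3p 9.36 times the median of the others, so that both arms were higher in that library.

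**Figure D2:**
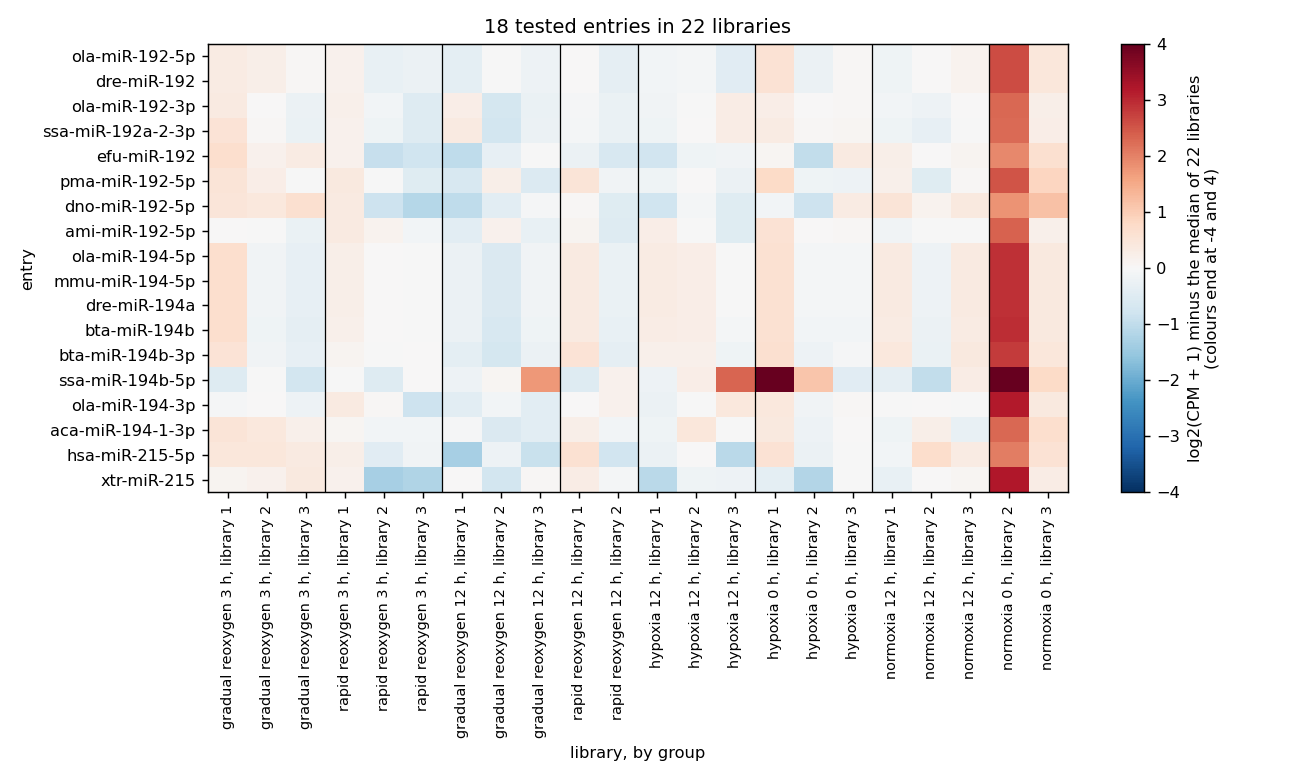
log2(CPM + 1) of the 18 tested entries in the 22 libraries, each entry less its own median, with libraries side by side by group and red for values above the median. The column of normoxia 0 h library 2 is the darkest, and the entry ssa-miR-194b-5p is also high in hypoxia 0 h library 1, at 111 CPM.

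Other miRNAs set this library apart as well. The root mean square deviation of its log2 values from the median library was 1.34, against 0.345 to 0.868 for the other 21. miR-122, which marks hepatocytes, had 37563 CPM there and 70974 to 109912 CPM in the others. All 5 miRNAs of the epithelium list (miR-200a, miR-200b, miR-200c, miR-141 and miR-429) had their highest level in this library. Their summed level was 19714 CPM there and 1395 to 3965 CPM in the others. The smooth muscle pair miR-143 and miR-145 summed to 65535 CPM there and 12847 to 34957 CPM in the others. Over the 22 libraries miR-143 averaged 22391 CPM and miR-145 66.6 CPM, so that sums of this pair follow miR-143. The endocrine pair miR-375 and miR-7 summed to 198.986 CPM there, inside the 39.6 to 198.995 CPM of the others: miR-375 had 59.2 CPM there and 0.283 to 36.2 CPM in the others, and miR-7 had 139.8 CPM there and 36.8 to 197.8 CPM in the others. The erythroid pair miR-451 and miR-144 summed to 823 CPM there and 863 to 13971 CPM in the others. With averages of 5299 CPM for miR-451 and 104 CPM for miR-144, sums of this pair follow miR-451. The acinar pancreas list summed to 4134 CPM there, inside the 32.6 to 4338 CPM of the others, and the leukocyte list to 134 CPM there and 49.4 to 128 CPM in the others. Whether these markers have a part in the levels of miR-192, miR-194 and miR-215 was not tested, and in a bulk library fewer cells of a type and less RNA per cell cannot be told apart.

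**Figure D3:**
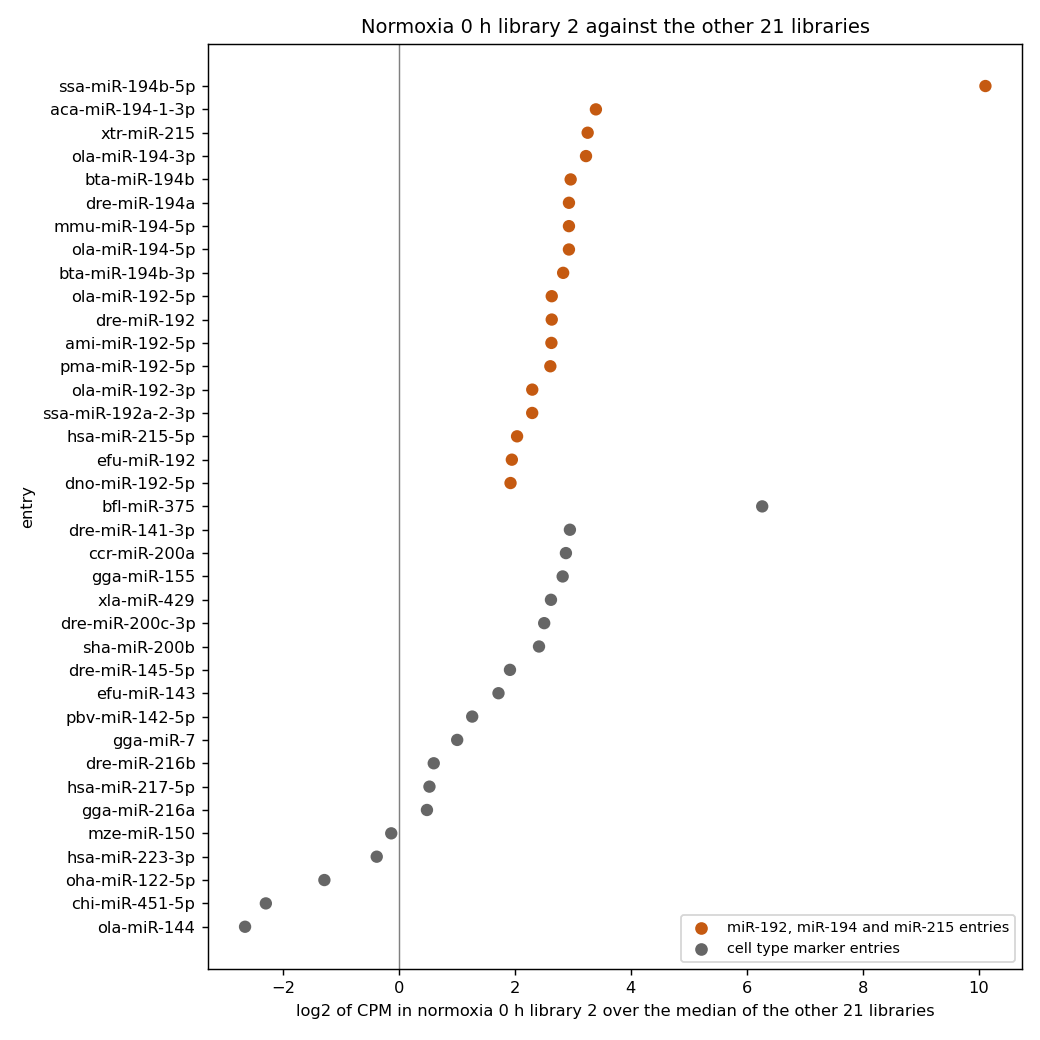
log2 of the CPM in normoxia 0 h library 2 over the median of the other 21 libraries, for the 18 tested entries above and cell type marker entries beneath, each with one point per entry. The miR-192, miR-194 and miR-215 entries lie right of 0, as do the epithelium, smooth muscle, endocrine and acinar markers and miR-142 and miR-155, whereas miR-122, miR-451, miR-144, miR-223 and miR-150 lie left of it.

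The 5 miRNA names whose most abundant entry was most like ola-miR-192-5p over the 22 libraries were novel_109 (a predicted miRNA), miR-135b, miR-183, miR-429 and miR-31, with Pearson r of log2(CPM + 1) of 0.895, 0.765, 0.760, 0.729 and 0.719 among 269 names. Without normoxia 0 h library 2 the same 5 had r of 0.300, 0.190, 0.003, -0.266 and -0.180. In that set of 21 libraries miR-101 stood first at 0.749. The likeness over 22 libraries thus rested on 1 library.

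ssa-miR-194b-5p, an entry named after the salmon, behaved unlike its relatives. Among the reoxygenated livers it had 0.512, 1.13 and 0.296 CPM at gradual reoxygen 3 h, 1.13, 0.499 and 1.18 CPM at rapid reoxygen 3 h, 0.858, 1.27 and 6.20 CPM at gradual reoxygen 12 h, and 0.510 and 1.42 CPM at rapid reoxygen 12 h. It had 0.857, 1.61 and 9.83 CPM in hypoxia 12 h livers and 111, 3.63 and 0.564 CPM in hypoxia 0 h livers, against 0.697, 0.0824 and 1.63 CPM in normoxia 12 h livers and 1256 and 2.66 CPM in normoxia 0 h livers. The entry was thus high in 2 libraries of 2 different groups. The level in normoxia 0 h library 2 rested on 31087 reads and that in hypoxia 0 h library 1 on 2843 reads. It came to 18.6% of the ola-miR-194-5p level in normoxia 0 h library 2 and 8.17% in hypoxia 0 h library 1, but 0.0105% to 1.12% in the other 20.

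No comparison called this entry in the limma fit. Its log2 change of hypoxia 0 h over normoxia 0 h was -2.86 ± 1.74 (SE, limma adjusted p = 0.701), and its standard errors, 1.56 to 1.74 for a difference between groups, were the widest of the tested entries.

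**Figure D4:**
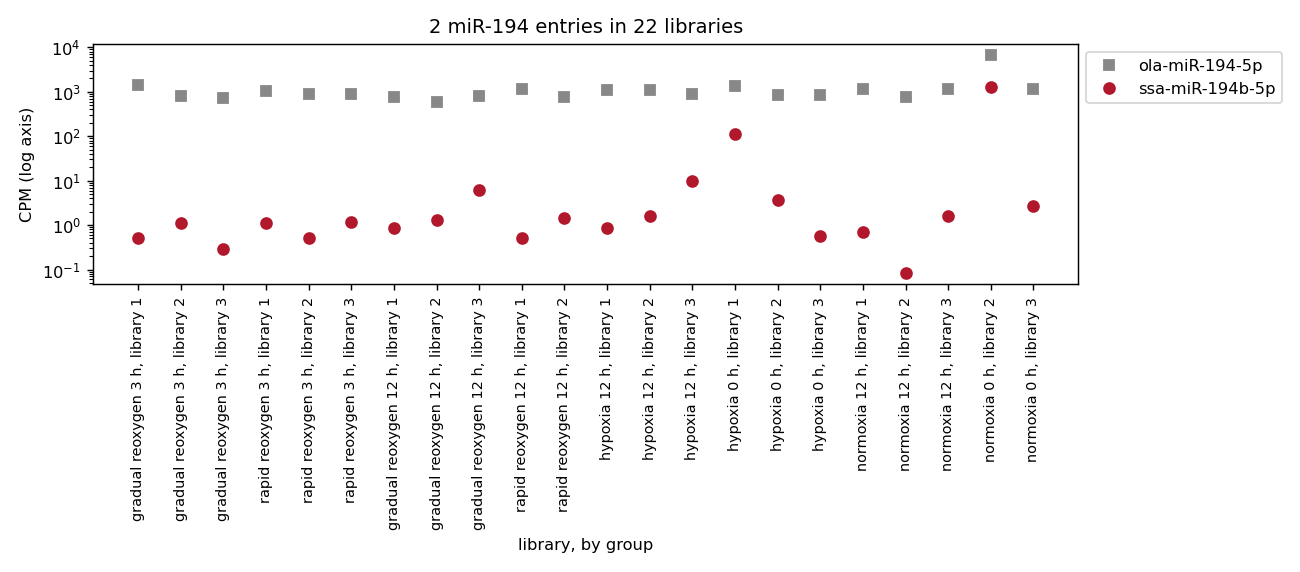
CPM on a log axis of ssa-miR-194b-5p (circles) and ola-miR-194-5p (squares) in the 22 libraries, by group. ssa-miR-194b-5p reaches 1256 CPM in normoxia 0 h library 2 and 111 CPM in hypoxia 0 h library 1 and stays under 10 CPM in the others.

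Did miR-192, miR-194 and miR-215 change with time at normal oxygen? Some entries of miR-192 were called lower in normoxia 12 h livers than in normoxia 0 h livers. Of miR-194 only the low-level entry aca-miR-194-1-3p was called, and no entry of miR-215 was. In limma's moderated test, fitted on log2(CPM + 1) across 602 rows with Benjamini-Hochberg adjustment and a threshold of 0.05, 4 of the 18 entries were called, all of them lower. Of all rows, 4.82% were called and 2.33% were called lower. ola-miR-192-5p fell by 1.54 ± 0.40 on the log2 scale (SE, adjusted p = 0.0288), and its near copy dre-miR-192 with it. pma-miR-192-5p, named after the lamprey, had 13.8, 8.16 and 12.3 CPM in normoxia 12 h livers, against 72.3 and 22.7 CPM in normoxia 0 h livers, and fell by 1.78 ± 0.44 (adjusted p = 0.0251). aca-miR-194-1-3p had 0.574, 1.07 and 0.438 CPM in normoxia 12 h livers, against 7.59 and 1.81 CPM in normoxia 0 h livers, and fell by 1.55 ± 0.35 (adjusted p = 0.0201). It held only 661 reads over the 22 libraries together.

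The leads of the other two names were not called. ola-miR-194-5p had a log2 change of -1.49 ± 0.49 (limma adjusted p = 0.0812), and hsa-miR-215-5p one of -0.998 ± 0.47 (adjusted p = 0.223). xtr-miR-215 had a log2 change of -1.83 ± 0.62 (adjusted p = 0.0881). All 18 entries had a negative change, with a median of -1.49, beside -0.06 over all rows, and all 18 had an unadjusted p under 0.05, as had 21.9% of all rows. Groups did not overlap for 17 of them, and for 16.8% of all rows in that direction.

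These calls depended on single libraries of both groups, and the size of the changes on normoxia 0 h library 2. Without it, limma called 0 of the 18 entries, beside 0.664% of all rows, and the log2 change of ola-miR-192-5p was -0.46 ± 0.28 (adjusted p = 0.545). Without library 3 of that group, all 18 entries were called, beside 32.1% of all rows, and ola-miR-192-5p had -2.61 ± 0.28 (adjusted p = 6.8e-06). Without normoxia 12 h library 1 the count of called entries was 0 (1.33% of all rows), without library 2 of that group it was 1 (1.5%) and without library 3 it was 0 (2.33%). Of the other tools, edgeR and DESeq2 each called 15 of the 18, beside 14.3% and 16.1% of all rows. Between these groups the hepatocyte marker miR-122 was at 89169 to 95328 CPM in normoxia 12 h livers and 37563 to 70974 CPM in normoxia 0 h livers, and the erythroid pair summed to 7175 to 13971 CPM in normoxia 12 h livers and 823 to 2313 CPM in normoxia 0 h livers. The epithelium list summed to 1395 to 2901 CPM in normoxia 12 h livers and 3076 to 19714 CPM in normoxia 0 h livers, and the smooth muscle pair to 13586 to 18084 CPM in normoxia 12 h livers and 26816 to 65535 CPM in normoxia 0 h livers. The acinar list summed to 469.9 to 2909 CPM in normoxia 12 h livers and 4134 to 4270 CPM in normoxia 0 h livers. The part of these markers in the changes was not tested.

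The question of the study, how hypoxia and the rate of reoxygenation act on liver miRNAs, is first met by the contrast of hypoxia with normoxia. At 12 h the entries showed no change that could be called. In hypoxia 12 h against normoxia 12 h livers, limma, edgeR and DESeq2 each called 0 of 18 entries, and 0 had an unadjusted limma p under 0.05 (3.82% of all rows). Of all rows, limma called 0.664%, while edgeR called 3 rows and DESeq2 10. ola-miR-192-5p had a log2 change of -0.21 ± 0.36 (SE, limma adjusted p = 0.997), ola-miR-194-5p one of 0.02 ± 0.44 and hsa-miR-215-5p one of -0.74 ± 0.42, both with the same adjusted p. Of the entries, 9 were higher and 9 lower. Groups did not overlap for dno-miR-192-5p (6.35, 11.1 and 8.19 CPM in hypoxia 12 h livers, against 17.3, 13.0 and 15.6 CPM in normoxia 12 h livers) and efu-miR-192, named after a bat, both lower in hypoxia, while 7.97% of all rows had groups apart in that direction. The erythroid pair summed to 2534 to 4031 CPM in hypoxia 12 h livers and 7175 to 13971 CPM in normoxia 12 h livers, and the smooth muscle pair to 19553 to 21721 CPM in hypoxia 12 h livers and 13586 to 18084 CPM in normoxia 12 h livers, with no test of their part.

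At 0 h all 18 entries had lower values in hypoxia livers than in normoxia livers, but none passed the test in limma. The groups did not overlap for 5 of them, beside 8.31% of all rows in that direction. The median log2 change was -1.51, beside -0.05 over all rows, and 17 of 18 had an unadjusted limma p under 0.05, as had 8.31% of all rows. limma called 0 entries and 0.498% of all rows, edgeR called 10 entries (and 3.16% of all rows) and DESeq2 16 (7.14%). ola-miR-192-5p had a log2 change of -1.41 ± 0.40 (SE, limma adjusted p = 0.157), ola-miR-194-5p -1.52 ± 0.49 (adjusted p = 0.179), hsa-miR-215-5p -1.19 ± 0.47 (adjusted p = 0.336) and xtr-miR-215 -2.27 ± 0.62 (adjusted p = 0.152).

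Normoxia 0 h library 2 also set the size of these changes. Without it the log2 changes were -0.33 ± 0.28 for ola-miR-192-5p, -0.26 ± 0.38 for ola-miR-194-5p and -0.45 ± 0.52 for hsa-miR-215-5p, with limma adjusted p of 0.574, 0.760 and 0.697. Without library 3 of that group they were -2.48 ± 0.28, -2.78 ± 0.38 and -1.92 ± 0.52, with adjusted p of 2.27e-05, 5.43e-05 and 0.0143. limma then called all 18 entries and 19.8% of all rows, against 0 entries and 0% of all rows without library 2. The 2 normoxia libraries at 0 h therefore gave different answers on whether the 3 leads passed. miR-122 was at 74116 to 90170 CPM in hypoxia 0 h livers and 37563 to 70974 CPM in normoxia 0 h livers. The erythroid pair summed to 2674 to 4849 CPM in hypoxia 0 h livers and 823 to 2313 CPM in normoxia 0 h livers, and the acinar list to 2300 to 3499 CPM in hypoxia 0 h livers and 4134 to 4270 CPM in normoxia 0 h livers. Whether these markers bear on the changes was not tested.

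The difference between the hypoxia contrasts at 12 h and at 0 h was tested as an interaction. All 18 entries had a positive difference, with a median of 1.45, beside 0.01 over all rows. limma called 0 of them, with 0.997% of all rows called, although 13 had an unadjusted p under 0.05, as had 8.97% of all rows. edgeR called 0 entries and 0.664% of all rows, and DESeq2 2 entries and 3.99%. For ola-miR-192-5p the difference was 1.20 ± 0.54 on the log2 scale (limma adjusted p = 0.486), and without normoxia 0 h library 2 it was 0.12 ± 0.34. Leaving out 1 library at a time gave 0.12 to 2.27 for ola-miR-192-5p. The range was 0.28 to 2.80 for ola-miR-194-5p and -0.29 to 1.18 for hsa-miR-215-5p, so the size of the difference depended on single libraries. In the limma fit of all 22 libraries, the hypoxia contrasts of these entries were thus not shown to differ between 12 h and 0 h.

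**Figure D5:**
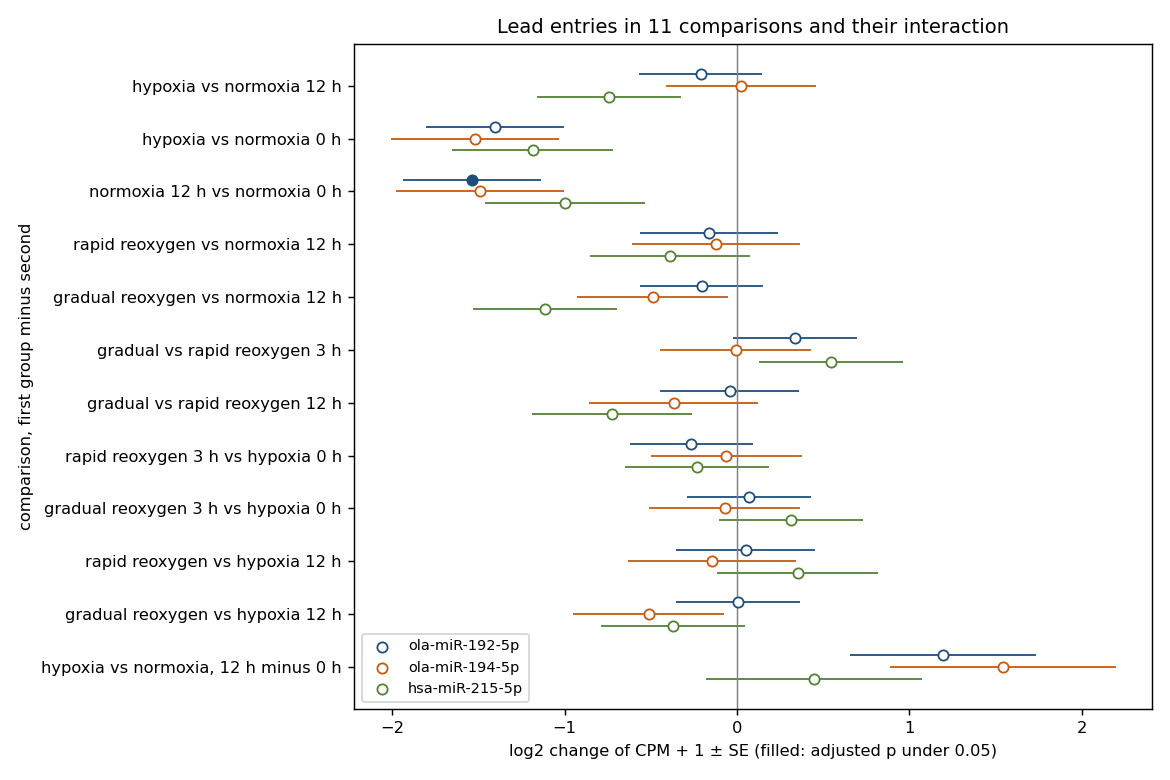
log2 changes of CPM + 1 with standard errors for ola-miR-192-5p, ola-miR-194-5p and hsa-miR-215-5p in 11 comparisons and in the difference between the hypoxia contrasts at 12 h and 0 h, first group minus second. The single filled point, ola-miR-192-5p in normoxia 12 h over normoxia 0 h at -1.54, is the only one with an adjusted p under 0.05 in limma.

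The rate of reoxygenation was compared directly at 3 h and at 12 h. At 3 h the miR-192 and miR-215 leads were higher after gradual reoxygen than after rapid reoxygen by 0.33 ± 0.36 and 0.55 ± 0.42 on the log2 scale (SE, limma adjusted p = 0.881 and 0.777), and ola-miR-194-5p differed by -0.01 ± 0.44. limma, edgeR and DESeq2 each called 0 of 18 entries. limma and edgeR called 0% of all rows, and DESeq2 called 14 rows. In limma, 2 entries had an unadjusted p under 0.05, as had 9.47% of all rows. These were dno-miR-192-5p and efu-miR-192, whose log2 values followed each other across libraries, so that they are not separate observations. dno-miR-192-5p had 16.9, 16.3 and 19.0 CPM in gradual reoxygen 3 h livers, against 15.4, 6.18 and 4.74 CPM in rapid reoxygen 3 h livers, a log2 change of 1.06 ± 0.38 (limma adjusted p = 0.307).

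efu-miR-192 had 99.2, 69.3 and 77.0 CPM in gradual reoxygen 3 h livers, against 68.8, 31.9 and 35.1 CPM in rapid reoxygen 3 h livers, a log2 change of 0.91 ± 0.40 (limma adjusted p = 0.408). Groups did not overlap for 4 entries (these, aca-miR-194-1-3p and hsa-miR-215-5p), all higher after gradual reoxygen, which held for 10.6% of all rows. 4 of the cell type lists had sums that did not overlap between the same groups. The erythroid pair summed to 9458 to 12791 CPM in gradual reoxygen 3 h livers and 2920 to 4729 CPM in rapid reoxygen 3 h livers, and the acinar list to 38.4 to 1388 CPM in gradual reoxygen 3 h livers and 2550 to 3513 CPM in rapid reoxygen 3 h livers. The epithelium list summed to 1493 to 2082 CPM in gradual reoxygen 3 h livers and 2997 to 3877 CPM in rapid reoxygen 3 h livers, and the smooth muscle pair to 13461 to 17245 CPM in gradual reoxygen 3 h livers and 17839 to 22400 CPM in rapid reoxygen 3 h livers. Their part in the values was not tested.

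At 3 h 11 of the 18 entries were higher after gradual reoxygen than after rapid reoxygen and 7 lower. At 12 h 16 of the 18 were lower after gradual reoxygen, again with no call. The difference between these times was not tested. At 12 h the median log2 change was -0.35, beside -0.06 over all rows. limma called 0 entries and 0% of all rows, and 0 entries had an unadjusted p under 0.05 (6.81% of all rows). edgeR and DESeq2 called 0 entries each, and of all rows edgeR called 0 and DESeq2 4. Groups did not overlap for ola-miR-194-3p, lower in gradual reoxygen livers, beside 16.3% of all rows. The log2 change was -0.04 ± 0.40 for ola-miR-192-5p, -0.37 ± 0.49 for ola-miR-194-5p and -0.73 ± 0.47 for hsa-miR-215-5p (SE, limma adjusted p = 0.999, 0.899 and 0.805). Leaving out 1 library at a time gave -0.67 to -0.06 for ola-miR-194-5p and -1.40 to -0.05 for hsa-miR-215-5p, the value nearest 0 coming without rapid reoxygen 12 h library 1 and the lowest without library 2 of that group. For ola-miR-192-5p the sign changed with TMM factors, edgeR, DESeq2 and a replicate block, and without gradual reoxygen 12 h library 1 or rapid reoxygen 12 h library 1. The epithelium list summed to 2661 to 3795 CPM in gradual reoxygen 12 h livers and 1984 to 2525 CPM in rapid reoxygen 12 h livers, and its part was not tested.

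Against normoxia 12 h, 17 of 18 entries were lower in gradual reoxygen 12 h livers, with a median log2 change of -0.29, beside -0.12 over all rows. limma, edgeR and DESeq2 called 0 of them, while limma called 1.66% of all rows, edgeR 0 rows and DESeq2 22. Among the entries, 2 had an unadjusted limma p under 0.05, as had 10.6% of all rows. One of the 2 was hsa-miR-215-5p, with a log2 change of -1.11 ± 0.42 (SE, limma adjusted p = 0.289), and its 3 gradual reoxygen 12 h libraries, at 353 to 763 CPM, lay below the 814 to 1431 CPM of the normoxia 12 h libraries. The other was dno-miR-192-5p, with -0.83 ± 0.38 (adjusted p = 0.433). Including these, 4 entries had groups that did not overlap, all lower, compared with 16.9% of all rows.

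In the same comparison ola-miR-192-5p had a log2 change of -0.21 ± 0.36 (SE, limma adjusted p = 0.898), whose sign turned with TMM factors and with edgeR. The ratio of the ola-miR-192-5p level to that of hsa-miR-215-5p was 34.9, 20.9 and 29.5 in gradual reoxygen 12 h livers, against 17.6, 11.5 and 16.0 in normoxia 12 h livers. The 2 sets did not overlap, and no test was made of the ratio, which was looked at after the values were seen. ola-miR-194-5p had a log2 change of -0.49 ± 0.44 (adjusted p = 0.715). The erythroid pair summed to 863 to 4501 CPM in gradual reoxygen 12 h livers and 7175 to 13971 CPM in normoxia 12 h livers, and the leukocyte list to 49.4 to 73.8 CPM in gradual reoxygen 12 h livers and 78.1 to 115 CPM in normoxia 12 h livers. Their part was not tested.

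In rapid reoxygen 12 h against normoxia 12 h livers, limma called 0 of 18 entries and 0% of all rows. In that fit 0 entries had an unadjusted p under 0.05 (4.49% of all rows). edgeR and DESeq2 called 0 entries, and of all rows edgeR called 0 and DESeq2 8. Groups did not overlap for ola-miR-194-3p, which was higher (8.31% of all rows), and for dno-miR-192-5p and efu-miR-192, which were lower (9.47%). The erythroid pair summed to 1991 to 2872 CPM in rapid reoxygen 12 h livers and 7175 to 13971 CPM in normoxia 12 h livers, and its part was not tested. The log2 change was -0.16 ± 0.40 for ola-miR-192-5p, -0.12 ± 0.49 for ola-miR-194-5p and -0.39 ± 0.47 for hsa-miR-215-5p (SE, limma adjusted p = 0.977 for each). Both comparisons of reoxygenated livers with normoxia 12 h use the same 3 normoxia libraries, which also serve the hypoxia contrast at 12 h.

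Reoxygenated livers were also compared with the hypoxia livers, and limma, edgeR and DESeq2 called 0 of 18 entries in each of these 4 comparisons. There limma and edgeR called 0% of all rows, and 0 entries had an unadjusted limma p under 0.05. Of all rows, DESeq2 called 7 in rapid reoxygen 3 h and 21 in gradual reoxygen 3 h against hypoxia 0 h livers. It called 0 rows in rapid reoxygen 12 h and 17 in gradual reoxygen 12 h against hypoxia 12 h livers. In rapid reoxygen 3 h against hypoxia 0 h livers all 18 entries were lower, with a median log2 change of -0.24, beside -0.02 over all rows, and the groups overlapped for each of them. The smooth muscle pair summed to 17839 to 22400 CPM in rapid reoxygen 3 h livers and 23162 to 34957 CPM in hypoxia 0 h livers, and the leukocyte list to 66.2 to 80.1 CPM in rapid reoxygen 3 h livers and 83.4 to 102 CPM in hypoxia 0 h livers, with no test of their part. An unadjusted p under 0.05 was found for 2.66% of all rows there. In gradual reoxygen 3 h against hypoxia 0 h livers, 8 were higher and 10 lower, and 14.8% of all rows had an unadjusted p under 0.05. Groups did not overlap for dno-miR-192-5p and xtr-miR-215, which were higher (14.3% of all rows), and for ami-miR-192-5p, named after the alligator, which was lower (17.3%). Between these groups the erythroid pair summed to 9458 to 12791 CPM in gradual reoxygen 3 h livers and 2674 to 4849 CPM in hypoxia 0 h livers, and the epithelium list to 1493 to 2082 CPM in gradual reoxygen 3 h livers and 2420 to 3965 CPM in hypoxia 0 h livers. The smooth muscle pair was at 13461 to 17245 CPM in gradual reoxygen 3 h livers and 23162 to 34957 CPM in hypoxia 0 h livers, and the acinar list at 38.4 to 1388 CPM in gradual reoxygen 3 h livers and 2300 to 3499 CPM in hypoxia 0 h livers. Their part was not tested. In rapid reoxygen 12 h against hypoxia 12 h livers, 8 were higher and 10 lower, groups did not overlap for xtr-miR-215, which was higher (12% of all rows), and 4.98% of all rows had an unadjusted p under 0.05, with ola-miR-192-5p at 0.05 ± 0.40 (SE, limma adjusted p = 0.985). The epithelium list summed to 1984 to 2525 CPM in rapid reoxygen 12 h livers and 2704 to 3477 CPM in hypoxia 12 h livers, and its part was not tested.

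In gradual reoxygen 12 h against hypoxia 12 h livers 15 of the 18 were lower, and 5 had groups that did not overlap, beside 18.8% of all rows, while 9.8% of all rows had an unadjusted p under 0.05. These were ola-miR-194-5p and 4 other miR-194 entries, which share most of their reads or follow it closely, so that they count as about 1 observation. ola-miR-194-5p had a log2 change of -0.51 ± 0.44 (SE, limma adjusted p = 0.831), and ola-miR-192-5p one of 0.01 ± 0.36.

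Across the 8 groups as a whole, limma's moderated F-test called 0 of the 18 entries and 1.5% of all rows. An unadjusted p under 0.05 was found for 13 entries and 14.8% of all rows, the smallest adjusted p being 0.106, for dno-miR-192-5p, and edgeR called 13 of the 18, beside 14.6% of all rows. In the 9 comparisons without normoxia 0 h, the 18 entries gave 162 log2 changes, of which limma called 0 and 4 had an unadjusted p under 0.05 (2.47%). All rows gave 5418 changes in the same comparisons, of which 14 were called (0.258%) and 406 had an unadjusted p under 0.05 (7.49%). Leaving out ssa-miR-194b-5p, these changes lay between -1.11 and 1.06.

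Of 9 miRNAs linked with p53 in human cells (miR-34a, miR-34b, miR-34c, miR-107, miR-143, miR-145, miR-15a, miR-16 and miR-200c), 8 were tested, miR-34a and miR-34b being near copies. miR-143, miR-145 and miR-200c also belong to the smooth muscle or epithelium lists, and each was highest in normoxia 0 h library 2. In normoxia 12 h against normoxia 0 h livers, 5 were lower and 3 higher, with a median log2 change of -1.11, beside -0.06 over all rows. miR-143 alone was called, with a log2 change of -1.46 ± 0.34 (SE, limma adjusted p = 0.0226), while 2.33% of all rows were called lower. Its level in normoxia 0 h library 2 was 3.29 times the median of the other 21 libraries. In hypoxia 0 h against normoxia 0 h livers 6 were lower and 2 higher, with 0 called (0.498% of all rows) and a median of -0.51, beside -0.05 over all rows. In hypoxia 12 h against normoxia 12 h livers 6 were higher and 2 lower, with 0 called (0.664% of all rows) and a median of 0.45, beside -0.01 over all rows. miR-34a, the p53 target best known from human cells, had a log2 change of -0.75 ± 0.45 in hypoxia 0 h over normoxia 0 h (limma adjusted p = 0.698) and of 0.75 ± 0.40 in hypoxia 12 h over normoxia 12 h (adjusted p = 0.997). In gradual reoxygen 12 h against normoxia 12 h livers miR-15a alone was called, with a log2 change of -1.12 ± 0.28 (adjusted p = 0.0477), where 1.66% of all rows were called and the list's median was 0.32, beside -0.12 over all rows. limma called 0 of the 8 in the other comparisons.

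Among the cell type lists, limma calls in normoxia 12 h against normoxia 0 h livers were miR-122, miR-451 and miR-144, which rose by 0.84, 2.99 and 3.62 on the log2 scale (adjusted p = 0.0251, 0.00587 and 5.59e-05), and miR-200a and miR-141, which fell by 2.00 and 2.14 (adjusted p = 0.0251 for both), besides miR-143 above. In normoxia 0 h library 2, miR-122, miR-451 and miR-144 were the lowest of the 22 libraries, and miR-200a, miR-141 and miR-143 the highest. All rows were refitted without that library, but the values of these markers in that fit are not reported here. Whether their calls against normoxia 0 h rest on it is therefore not stated. miR-451 and miR-144 also fell in gradual reoxygen 12 h against normoxia 12 h livers, by 2.18 and 1.70 (adjusted p = 0.0389 for both). miR-144 was lower by 2.40 ± 0.39 in hypoxia 12 h than in normoxia 12 h livers and higher by 2.21 ± 0.44 in hypoxia 0 h than in normoxia 0 h livers (SE, limma adjusted p = 0.00214 and 0.0273). The endocrine, acinar pancreas and leukocyte lists had no limma call in the 11 comparisons, the smallest adjusted p being 0.187, for miR-142 in gradual reoxygen 12 h against normoxia 12 h livers. miR-122 was the most abundant cell type marker in 21 of the 22 libraries, and miR-143 in normoxia 0 h library 2.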

How the data were processed

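Small RNA of golden pompano liver was sequenced as single-end reads of 50 bases after Trizol extraction, per the labels' protocols. Bowtie is named, without a version, in the submitters' processing notes, while the genome build, the annotation and the counting tool are not given in those sources. The values deposited by the authors are CPM, though the name of their table says TPM. Every library column has the same sum, and each value divided by what 1 read is worth comes out whole to within 0.01, so reads could be recovered. Each library had between 17.5 and 33.8 M assigned reads, 1 read being worth 0.0296 to 0.0572 CPM, and a read may count in several near-identical entries. Intervals from depth would cover counting error only. The 8 deposited columns of group means were checked against the libraries. Those of normoxia 0 h and rapid reoxygen 12 h include a library not analysed here. No genome and no mature sequences were used.

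Identical rows were merged for the tests, 708 being dropped, and log2(CPM + 1) of the 602 rows that reached 1 CPM in 2 or more libraries was fitted jointly for all 8 groups in R 4.3.3 using limma 3.58.1 and its trend of variance on mean. Benjamini-Hochberg adjustment ran over the 602 rows within each comparison, at a threshold of 0.05. The recovered reads were tested in edgeR 4.0.16, by quasi-likelihood, and in DESeq2 1.42.0. Other alternatives were a pseudocount of 10, no filter, TMM factors, the replicate number as a block and each library left out. The fit was tested on simulated data. The text names the 18 tested entries of miR-192, miR-194 and miR-215 and gives the distinct rows not tested only as a count. It also names the lead of each name, the 5 other names most like the miR-192 lead, a p53-linked list and cell type lists (hepatocyte, epithelium, endocrine, acinar pancreas, erythroid, smooth muscle, leukocyte), each miRNA of the lists by its most abundant entry. These members and lists were chosen with earlier results of these data known. Figures were drawn with matplotlib 3.10.9 in Python 3.11.15.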

Additional observations from a re-analysis of the deposited data

How the results depend on the processing

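Of 513 values of the 3 lead entries under alternative settings, 457 kept their side of the threshold and, where they had one, their direction. Values of the test across the 8 groups have no direction and were judged by the threshold alone. Another 18 values passed the threshold only under the alternative, and 6 passed it only in the limma fit as reported. The other 32 changed sign, all among changes that had not been called. The causes were not tested. On the log2 scale, ola-miR-192-5p had -1.78 with edgeR and -1.91 with DESeq2 in hypoxia 0 h against normoxia 0 h livers, and ola-miR-194-5p had -2.03 and -2.17, all of them past the threshold. In normoxia 12 h against normoxia 0 h livers, ola-miR-192-5p had -1.54 with no filter and -1.45 with TMM factors, both short of the threshold, and ola-miR-194-5p had -2.01 with edgeR and -2.14 with DESeq2, both past it. The sign of ola-miR-192-5p turned in gradual reoxygen 12 h against normoxia 12 h livers with TMM factors (0.00604) and edgeR (0.0094), in gradual against rapid reoxygen 12 h livers with TMM factors (0.13), edgeR (0.10) and DESeq2 (0.075), and that of ola-miR-194-5p in gradual against rapid reoxygen 3 h livers with edgeR (0.027) and DESeq2 (0.019). Across the 8 groups, edgeR gave adjusted p of 0.0165 for ola-miR-192-5p and 0.0262 for ola-miR-194-5p. DESeq2 was not run for that test.

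With the replicate number as a block, ola-miR-192-5p had 0.069 in gradual against rapid reoxygen 12 h livers and -0.063 in rapid reoxygen 12 h against hypoxia 12 h livers, both of the other sign. The block raised the number of called entries in normoxia 12 h against normoxia 0 h livers to 5, against 4 without it, with 29 of all rows called in each fit. Libraries with the same number did not deviate together on average (mean r of -0.03 over 70 pairs, and 0.01 over 141 pairs with different numbers). Single pairs with the same number ran from -0.47 to 0.49. A small mean cannot exclude that the numbers pair the libraries. In normoxia 12 h against normoxia 0 h livers the 18 entries had 4 calls in limma (29 of all 602 rows), 4 with a pseudocount of 10 (26 rows), 1 with TMM factors (20 rows), 0 with no filter (11 of 1399 rows), 15 with edgeR (86 rows) and 15 with DESeq2 (97 rows).

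Leaving out 1 library at a time gave, for ola-miR-192-5p, log2 changes of -2.48 to -0.33 in hypoxia 0 h against normoxia 0 h, -2.61 to -0.46 in normoxia 12 h against normoxia 0 h, -0.35 to 0.024 in rapid reoxygen 12 h against normoxia 12 h, -0.23 to 0.14 in gradual against rapid reoxygen 12 h, -0.12 to 0.30 in gradual reoxygen 3 h against hypoxia 0 h, -0.14 to 0.23 in rapid reoxygen 12 h against hypoxia 12 h, -0.11 to 0.10 in gradual reoxygen 12 h against hypoxia 12 h and 0.12 to 2.27 in the interaction, and adjusted p of 0.000252 to 0.428 across the 8 groups. For ola-miR-194-5p the ranges were -0.16 to 0.13 in hypoxia 12 h against normoxia 12 h, -2.78 to -0.26 in hypoxia 0 h against normoxia 0 h, -2.75 to -0.23 in normoxia 12 h against normoxia 0 h, -0.43 to 0.18 in rapid reoxygen 12 h against normoxia 12 h, -0.32 to 0.19 in gradual against rapid reoxygen 3 h, -0.18 to 0.17 in rapid reoxygen 3 h against hypoxia 0 h, -0.38 to 0.16 in gradual reoxygen 3 h against hypoxia 0 h, -0.45 to 0.16 in rapid reoxygen 12 h against hypoxia 12 h and 0.28 to 2.80 in the interaction, and adjusted p of 0.000722 to 0.680 across the 8 groups. For hsa-miR-215-5p they were -1.92 to -0.45 in hypoxia 0 h against normoxia 0 h, -1.73 to -0.27 in normoxia 12 h against normoxia 0 h, -1.07 to 0.29 in rapid reoxygen 12 h against normoxia 12 h, -0.32 to 1.03 in rapid reoxygen 12 h against hypoxia 12 h and -0.29 to 1.18 in the interaction, and adjusted p of 0.0168 to 0.350 across the 8 groups. Where a group is left with 1 library, that library is assumed to vary like the other groups. Depth does not limit the lead entries, but aca-miR-194-1-3p rests on 5 to 188 reads per library.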
